A study of Mus musculus with 8 samples.

Results

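The ATF4 integrated stress response genes described here are Atf4, Atf5, Ddit3, Trib3, Chac1, Asns, Sesn2, Psat1, Phgdh and Ddit4. They were found by gene symbol in the deposited tables and are 10 of 54146 genes, each present in all 8 libraries. RNA-seq had been performed on cultured mouse astrocytes in 4 groups of 2 biological replicates to ask how GSTM1, a glutathione S-transferase, affects the transcriptional answer of astrocytes to the inflammatory cytokine TNF-α. The groups were unstimulated control KD astrocytes, unstimulated GSTM1 KD astrocytes, and each kind exposed for 6 h to TNF-α at a dose of 50 ng/ml. Control KD cells carried a non-silencing short hairpin RNA (shRNA) and GSTM1 KD cells carried an shRNA against Gstm1, both delivered by lentivirus from the pLKO-puro vector. All groups came from mixed glia of neonatal C57BL/6 cortex with more than 1 brain pooled in a flask. In all of them the mixed glia were infected and selected with puromycin, cells at the surface were removed by shaking, and astrocytes were kept as the fraction that magnetic CD11b sorting did not retain and were plated again. The cells were therefore enriched by removal of others rather than selected with an astrocyte marker. The study's text as read here does not say how many shRNA sequences against Gstm1 were used.

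The integrated stress response starts when a kinase such as PERK, GCN2, PKR or HRI phosphorylates the translation factor eIF2. General protein synthesis then falls, while the messenger RNAs of ATF4 and ATF5 are translated more efficiently because of upstream open reading frames in their leaders. ATF4 binds C/EBP-ATF response elements (CARE) and activates genes for amino acid synthesis and transport, for tRNA charging and, when stress persists, for growth arrest and cell death. In astrocytes the pathway matters for the supply of serine, which these cells make for neurons, and for glutathione, the substrate of GSTM1. Much of the control of ATF4 itself is at translation, which RNA-seq does not measure.

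The total expected count per library ran from 17349682 to 34434615. Gstm1 stood at 209 to 390 CPM (counts divided by the TMM-adjusted library size of edgeR, so that libraries can be compared) in the 4 control KD libraries and at 23.3 to 31.3 CPM in the 4 GSTM1 KD libraries, so the target gene went with the labels. All 10 astrocyte markers examined (Gfap, Aqp4 and Slc1a3 among them) had counts in all libraries, and their summed level was 3230 to 9600 CPM. The microglial markers Aif1, P2ry12 and Cx3cr1 had at most 9 counts in a library. Fibroblast and mural markers summed to 7740 to 8780 CPM in control KD and to 4470 to 5160 CPM in GSTM1 KD, a sum carried by Acta2 and Tagln (3580 and 2710 of 8780 CPM in control KD replicate 1 at baseline). Of 9 of them tested, Col1a2, Acta2 and Tagln were called lower in GSTM1 KD in each state, and Pdgfrb was called higher after TNF-α (log2 fold change 0.81, adjusted p = 0.0337). Oligodendrocyte lineage markers summed to 620 to 840 CPM in control KD and 537 to 614 CPM in GSTM1 KD, and of 7 tested Olig2 was called lower in both states (-0.85 and -1.14) and Olig1 after TNF-α (-0.44). Of the astrocyte markers S100b was called lower in both states (-1.44 and -1.71), and of 6 ependymal markers tested Pifo was called higher after TNF-α (1.18). Over all genes tested, 5.62% were called lower at baseline and 8.92% after TNF-α, and 10.2% and 16.2% in either direction. These shares apply to the calls of all marker lists given here. Endothelial markers summed to 17.5 to 25.4 CPM in control KD and 9.14 to 17.6 CPM in GSTM1 KD, and neuronal markers to 390 to 422 and 421 to 502 CPM. The part of these cells in the results below was not tested. One pair of libraries stood apart in the genes described here: control KD replicate 1, at baseline and after TNF-α, had the highest levels of most of them and the lowest summed level of astrocyte markers. The knockdown differences of the 10 genes and the medians of 4 other lists of the pathway are given below with and without them. In bulk samples such as these, fewer cells of a type and less RNA per cell cannot be told apart.

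The CARE core was looked for in the RefSeq promoter windows of the 10 genes (GRCm38, from 250 bases before to 50 bases after the annotated start), because ATF4 acts through it. The letters searched were TGATGNAA on both strands, where N is any base. Trib3, Chac1 and Asns held 1 match each, and the windows of the other 7 genes did not hold these letters, which says nothing about binding elsewhere. That is 3 of 10 genes (30%), against 4.51% of 27025 genes with a window. Lists of ATF4 targets are drawn in part from genes with known CARE sites, so this share, like that of the other lists below, is a description and not independent of how the genes were chosen. The matches are printed in 30 bases on the strand of the gene, with the core in capitals. In Chac1 the core lay at bases -193 to -186 from the RefSeq start, reads TGATGCAA on the opposite strand, and is in no annotated gene (shown as chr2:119351038-119351067, plus strand). In Trib3 it lay at bases 15 to 22 after the RefSeq start, reads TGATGTAA on the opposite strand, and falls before the GENCODE start of the gene (chr2:152344028-152344057, minus strand). In Asns it lay at bases -23 to -16 on the gene's own strand and inside an annotated exon of Asns (chr6:7693214-7693243, minus strand).
Chac1: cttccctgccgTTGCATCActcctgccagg
Trib3: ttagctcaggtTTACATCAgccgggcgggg
Asns: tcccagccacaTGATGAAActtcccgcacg

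Per unit of transcript length, the 10 genes spanned a wide range of levels. Over the 8 libraries the mean was 196 TPM for Atf5, 182 TPM for Phgdh and 179 TPM for Atf4, and these 3 could not be ordered, since their libraries ran from 73.9 to 389, from 132 to 243 and from 128 to 296 TPM. The means were 113 TPM for Psat1 (87.6 to 145), 76.5 TPM for Ddit3 (49.2 to 125), 74.1 TPM for Asns (31.3 to 152), 45.5 TPM for Ddit4 (36.8 to 52.3) and 42.3 TPM for Sesn2 (37.0 to 50.6). These means pool groups that differ, and neighbours in their order overlapped and changed places between libraries. Asns, for instance, was above Psat1 in control KD replicate 1 at baseline (152 against 145 TPM) and below Ddit4 in GSTM1 KD replicate 2 (31.7 against 48.1 TPM). Chac1 at 5.08 TPM (2.52 to 12) and Trib3 at 3.84 TPM (1.13 to 12.2) were far lower than the other 8 in every library and overlapped with each other. The widest spread between libraries was that of Trib3, 10.8-fold from the lowest to the highest, followed by Atf5 at 5.26-fold, Asns at 4.85-fold and Chac1 at 4.78-fold. The narrowest were Sesn2 at 1.37-fold and Ddit4 at 1.42-fold.

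**Figure D1:**
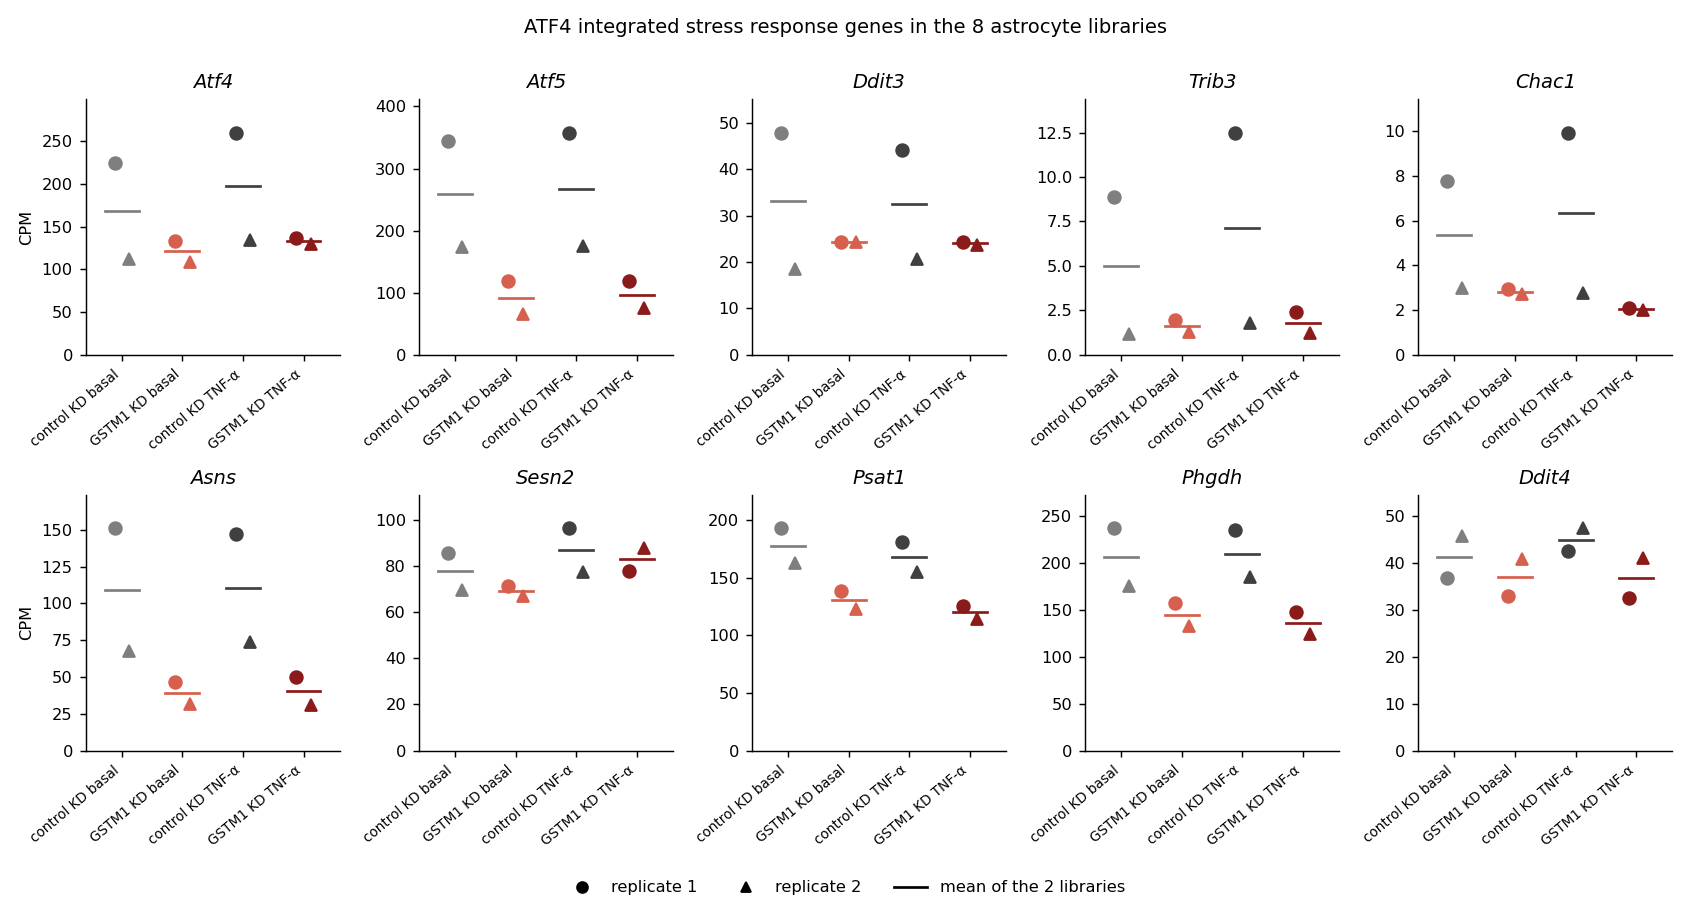
CPM of each of the 10 genes (vertical axes, each from 0) in the 4 groups, with replicate 1 as circles, replicate 2 as triangles and the mean of the 2 libraries as a line. Control KD replicate 1 is the highest point for 9 of the 10 genes at baseline and is well above its partner for Atf4, Atf5, Ddit3, Trib3, Chac1 and Asns, as in Trib3 at 8.85 against 1.17 CPM.

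The transcription factors are given first, by library, with replicate 1 before replicate 2. Atf4 (ENSMUSG00000042406.8, chr15:80255184-80257541), the main effector of the pathway, had 224 and 112 CPM in control KD and 133 and 109 CPM in GSTM1 KD at baseline. After TNF-α it had 260 and 134 CPM in control KD and 136 and 129 CPM in GSTM1 KD. Control KD replicate 1 was the high library in both states, and the other 6 libraries lay between 109 and 136 CPM. Atf5 (ENSMUSG00000038539.15, chr7:44812256-44816658), a relative of ATF4 under the same kind of translational control, had 345 and 174 CPM in control KD and 118 and 65.0 CPM in GSTM1 KD at baseline. After TNF-α the values were 358 and 175 against 119 and 74.7 CPM. For Atf5 the 2 kinds of culture did not overlap in either state. Atf5 overlaps Nup62 and Il4i1 on the opposite strand, so that reads of these genes may be mixed if strand was not used in counting. Ddit3 (ENSMUSG00000025408.15, chr10:127290774-127296288), which encodes CHOP, a factor linked to cell death under lasting stress, had 47.9 and 18.5 CPM in control KD and 24.3 and 24.2 CPM in GSTM1 KD at baseline. After TNF-α it had 44.2 and 20.6 against 24.3 and 23.7 CPM. Both GSTM1 KD libraries thus lay between the 2 control KD libraries in each state. Ddit3 overlaps Mars and Gm4189 on the opposite strand. In the GENCODE annotation used for positions it also overlaps a further gene model named Ddit3 on its own strand. Reads could be shared with that model only if it was counted, and the deposited tables hold a single row named Ddit3. The expected counts of Ddit3 and of Atf5 were whole numbers in all libraries (1696 and 473 for Ddit3 in control KD at baseline).

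Among the feedback and effector genes, Trib3 and Chac1 also had control KD replicate 1 far above the other libraries, at much lower counts. Trib3 (ENSMUSG00000032715.9, chr2:152337422-152344032), a pseudokinase that ATF4 and CHOP induce and that restrains them, had 8.85 and 1.17 CPM (313 and 30 counts) in control KD and 1.93 and 1.3 CPM (45 and 26 counts) in GSTM1 KD at baseline. After TNF-α it had 12.5 and 1.80 CPM (290 and 30 counts) against 2.40 and 1.21 CPM (52 and 21 counts). Apart from control KD replicate 1, all libraries held 2.40 CPM or less. Chac1 (ENSMUSG00000027313.3, chr2:119351229-119354381), a γ-glutamyl cyclotransferase that breaks down glutathione, had 7.77 and 2.97 CPM in control KD and 2.92 and 2.70 CPM in GSTM1 KD at baseline. After TNF-α the values were 9.94 and 2.77 against 2.08 and 2.01 CPM. Its groups did not overlap, but at baseline control KD replicate 2 was only just above the GSTM1 KD libraries, whereas replicate 1 stood far from all others. Sesn2 (ENSMUSG00000028893.8, chr4:132492032-132510501), a leucine sensor that holds mTORC1 in check, had 86.0 and 69.8 against 71.4 and 67.3 CPM at baseline and 96.5 and 77.6 against 78.2 and 88.0 CPM after TNF-α. Ddit4 (ENSMUSG00000020108.4, chr10:59949669-59951834), which encodes the mTORC1 inhibitor REDD1, had 36.9 and 45.7 against 33.0 and 40.9 CPM at baseline and 42.5 and 47.4 against 32.5 and 41.0 CPM after TNF-α. These 2 restrainers of mTORC1 varied little, and for Ddit4 replicate 1 was the lower library in all 4 groups.

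Of the amino acid enzymes, Asns varied most. Asns (ENSMUSG00000029752.12, chr6:7675169-7693254), asparagine synthetase, had 151 and 67.7 CPM in control KD and 46.8 and 31.3 CPM in GSTM1 KD at baseline. After TNF-α it had 147 and 74.0 against 50.1 and 31.1 CPM, with no overlap in either state. The serine pathway genes differed less between libraries. Phgdh (ENSMUSG00000053398.11, chr3:98313170-98339990), whose enzyme commits glucose carbon to serine, had 237 and 176 against 157 and 133 CPM at baseline and 235 and 185 against 148 and 124 CPM after TNF-α. Psat1 (ENSMUSG00000024640.9, chr19:15904678-15947337), the aminotransferase that acts next in that pathway, had 193 and 163 against 139 and 123 CPM at baseline and 181 and 155 against 126 and 114 CPM after TNF-α. Psat1 overlaps the annotated gene Gm3329 on the opposite strand, and Sesn2 overlaps Gm12981 on its own strand. For Phgdh and Psat1 every control KD library was above every GSTM1 KD library in both states.

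The difference within control KD was then set out as a ratio of replicate 1 to replicate 2, a comparison chosen after the values were seen and without a test, since it sets 1 library against another. At the basal level the ratio was 7.54 for Trib3, 2.62 for Chac1, 2.59 for Ddit3, 2.23 for Asns, 2.01 for Atf4 and 1.98 for Atf5. After TNF-α it was 6.92 for Trib3, 3.59 for Chac1, 2.14 for Ddit3, 2.04 for Atf5, 1.99 for Asns and 1.94 for Atf4. The same 6 genes therefore led in both states, while Phgdh (1.35 and 1.27), Sesn2 (1.23 and 1.24) and Psat1 (1.18 and 1.17) were nearer to 1 and Ddit4 was below 1 (0.807 and 0.895). At least a 2-fold excess in replicate 1 was seen for 5 of 10 genes at baseline, against 2.88% of all genes tested, and for 4 of 10 after TNF-α, against 3.59%. In GSTM1 KD, no gene of the 10 reached 2-fold in either state, where 2.22% of all genes did at baseline and 2.61% after TNF-α. There the largest ratios were those of Atf5 (1.82 and 1.60), Asns (1.49 and 1.61) and Trib3 (1.48 and 1.99), and Ddit3 (1.01 and 1.03) and Chac1 (1.08 and 1.03) were close to equal. The study calls the libraries biological replicates, and the labels number them without saying whether the same number marks the same culture in different groups.

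**Figure D2:**
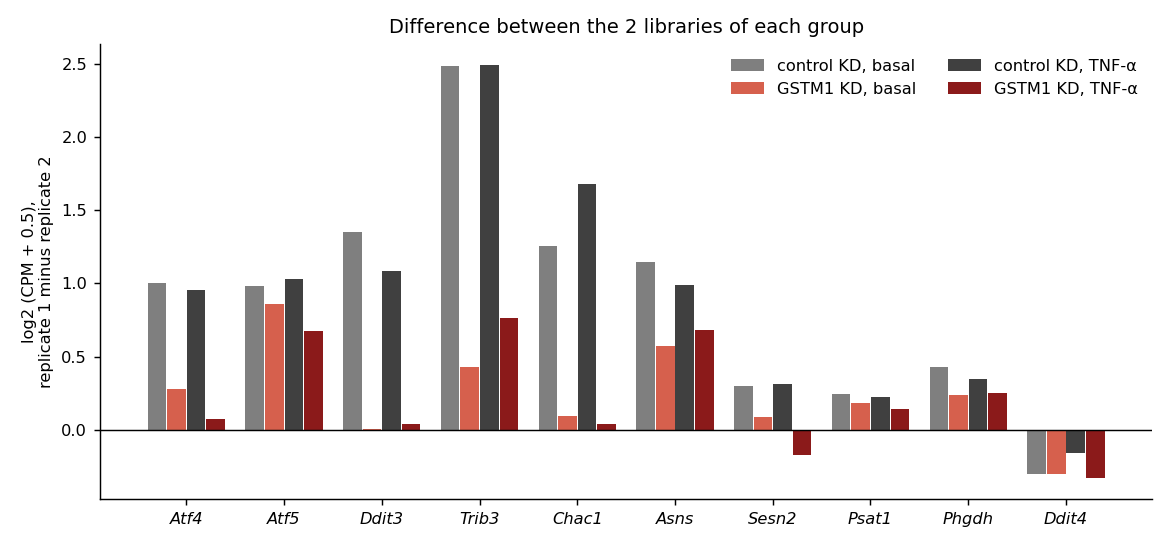
Difference of log2 (CPM + 0.5) between replicate 1 and replicate 2 (vertical axis) for the 10 genes in the 4 groups, 1 bar for each group. The grey control KD bars rise above the red GSTM1 KD bars in both states for all genes but Ddit4, up to 2.49 for Trib3. Ddit4 lies below 0 in all groups.

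Other genes of the pathway were read for the same within-group difference, as medians of log2 replicate 1 minus replicate 2. In control KD the 10 genes had medians of 1.00 at baseline and 0.97 after TNF-α. Medians of 0.55 and 0.46 were found for 20 cytosolic aminoacyl-tRNA synthetases, which charge tRNAs, and of 0.52 and 0.58 for 13 enzymes of serine, one-carbon, proline and transsulfuration metabolism. The medians were lower for 13 amino acid transporters (0.29 and 0.44), 11 secreted and death-linked effectors (0.33 and 0.24) and 6 genes of the list of bZIP partners and Nupr1 (0.23 and 0.18), and near 0 for 18 genes of eIF2, its kinases and its phosphatase (0.03 and 0.08). The 18 genes of the XBP1 and ATF6 arm of the unfolded protein response, which holds the chaperones of the endoplasmic reticulum, had medians of -0.04 and -0.01, and all genes tested had 0.00 and -0.01. Nor did the medians of 10 p53 targets (0.07 and 0.01) or 10 glucocorticoid targets (-0.07 and -0.04) lie far from 0, and 9 hypoxia targets were at -0.19 and -0.55. Control KD replicate 1 was thus above its partner in the medians of 5 of the 6 other pathway lists and level with it in those of the eIF2 list and the chaperone arm. The same libraries differed in cell markers. The summed level of 10 astrocyte markers was 3230 and 7200 CPM in control KD and 6570 and 9600 CPM in GSTM1 KD at baseline, and 3310 and 7340 against 6720 and 9510 CPM after TNF-α. Replicate 1 was below replicate 2 in all 4 groups, and control KD replicate 1 was the lowest of the 8. Marker by marker, control KD replicate 1 was below its partner for 10 of 10 in each state and the lowest of the 4 libraries of its state for 8 of 10. The exceptions were S100b and Sox9, for which it was above both GSTM1 KD libraries (S100b 7.38 against 2.96 and 3.15 CPM, Sox9 266 against 236 and 243 CPM at baseline). Microglial markers went the other way at very low levels. The 9 of them with fewer than 100 counts in every library, a limit set after the values were seen, summed to 8.05 and 3.17 CPM in control KD and 3.09 and 1.60 CPM in GSTM1 KD at baseline, and to 8.70 and 2.23 against 4.15 and 2.12 CPM after TNF-α. Control KD replicate 1 was thus the highest library in both states, by 2.54-fold and 3.91-fold over its partner, and replicate 1 was also above replicate 2 in GSTM1 KD (1.93-fold and 1.96-fold). This holds for these 9 markers and did not extend to the sum over the whole list of 10, in which the replicates were nearly level in control KD. Fibroblast and mural markers in control KD summed to 8780 and 8340 CPM at baseline and 7740 in each library after TNF-α. Those sums were carried by Acta2 and Tagln, and the median difference of the 9 markers tested was -0.34 and -0.42. Medians were also below 0 for 6 ependymal markers (-0.62 and -0.39) and 7 oligodendrocyte lineage markers (-0.27 in each state). They were above 0 for 4 endothelial (0.18 and 0.02) and 4 neuronal markers (0.15 and 0.05). The part of cell makeup in the excess of stress genes was not tested.

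**Figure D3:**
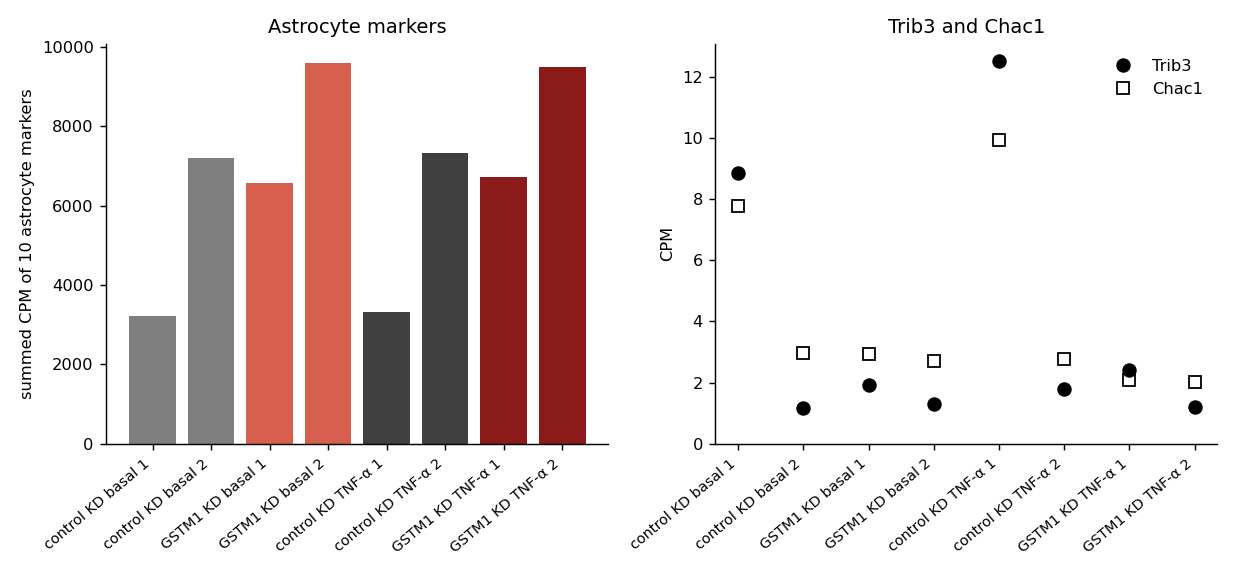
Left, summed CPM of 10 astrocyte markers in each of the 8 libraries (bars from 0). Right, CPM of Trib3 (filled circles) and Chac1 (open squares) in the same libraries. The 2 control KD replicate 1 libraries have the lowest marker sums, 3230 and 3310 CPM, and the highest Trib3, 8.85 and 12.5 CPM.

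At the basal level, the question was whether GSTM1 KD altered the pathway in unstimulated astrocytes. All 10 genes had a lower fitted level in GSTM1 KD, with a median log2 fold change of -0.49 against -0.002 for all genes tested, and none passed the test. The median was -0.18 without control KD replicate 1 and -0.95 without replicate 2. By the quasi-likelihood test of edgeR, adjusted over all genes after Benjamini and Hochberg and called under 0.05, 0 of 10 were called, where 10.2% of 14899 genes were called in either direction and 5.62% as lower. With the replicate number as a block in the fit, 6 of 10 were called, all as lower, where 15.9% of all genes were called as lower, and with no filter on low counts 8 of 10, where 8.76% were. Of the 10 genes, 4 had an unadjusted p under 0.05, a share near the 31.6% of all genes, and DESeq2 called 2, Asns (adjusted p = 0.000303) and Psat1 (adjusted p = 0.0489), where it called 10.1% of all genes as lower. Groups that did not overlap, with GSTM1 KD lower, were seen for 5 of 10 (Atf5, Chac1, Asns, Psat1 and Phgdh), against 31.2% of all genes. The log2 fold changes were largest for Trib3 at -1.64 (standard error 0.891, adjusted p = 0.263), Atf5 at -1.50 (standard error 0.407, adjusted p = 0.0728) and Asns at -1.48 (standard error 0.401, adjusted p = 0.0724). Those of Chac1 (-0.94), Phgdh (-0.51), Atf4 (-0.47), Ddit3 (-0.46) and Psat1 (-0.44) were smaller, and Sesn2 (-0.17) and Ddit4 (-0.16) were nearest to 0. Adjusted p-values of these 7 genes ran from 0.0915 for Psat1 to 0.550 for Ddit4.

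These values turned on control KD replicate 1. Without it, a fit that assumes the lone control KD library to vary like the others, 3 of 10 genes had log2 fold changes above 0, which were 0.12 for Atf4 (standard error 0.135), 0.39 for Ddit3 (standard error 0.160) and 0.47 for Trib3 (standard error 0.461). Chac1 went to -0.08 (standard error 0.317). Asns (-0.79, adjusted p = 0.0425) was then the 1 gene called, where 8.41% of all genes were called as lower, and Atf5 stood at -0.93 (adjusted p = 0.0689). Without control KD replicate 2 instead, 9 of 10 were called as lower, Ddit4 being the exception at -0.01, where 17% of all genes were called as lower. The direction of the 2 stress markers Ddit3 and Trib3 therefore depended on which control library was kept, whereas Atf5, Asns, Phgdh (-0.28) and Psat1 (-0.32) lay below 0 by more than their standard errors against either.

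After TNF-α, the same question gave 2 called genes, both in the serine pathway. Phgdh fell by 0.65 on the log2 scale (standard error 0.162, adjusted p = 0.0498) and Psat1 fell by 0.51 (standard error 0.124, adjusted p = 0.0474). That is 2 of 10 called as lower, where 16.2% of 14593 genes were called in either direction and 8.92% as lower, so the count is close to what 10 genes would hold at that rate. Both calls are near the threshold, and without control KD replicate 1 Phgdh was at -0.46 (adjusted p = 0.0494) and Psat1 at -0.39 (adjusted p = 0.0518). With the filter of at least 10 counts in every library 1 of the 10 was called, where 9.12% of all genes were called as lower, in the fit of all 8 libraries also 1, where 10.1% were, and with no filter 8, where 9.83% were. With the replicate block 6 of 10 were called as lower, where 15.3% of all genes were. An unadjusted p under 0.05 was found for 5 of 10, against 36.2% of all genes, and DESeq2 called 3 (Chac1, Psat1 and Phgdh), where it called 11.1% of all genes as lower. The groups did not overlap for 6 of 10, the 5 of baseline and Ddit4, against 32% of all genes.

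The log2 fold changes after TNF-α were -2.02 for Trib3 (standard error 0.897, adjusted p = 0.169), -1.68 for Chac1 (standard error 0.616, adjusted p = 0.115), -1.48 for Atf5 (standard error 0.389, adjusted p = 0.0561) and -1.47 for Asns (standard error 0.380, adjusted p = 0.0543). Atf4 stood at -0.60, Ddit3 at -0.47, Ddit4 at -0.32 and Sesn2 at -0.09, with adjusted p-values from 0.180 to 0.666. At baseline the value of Chac1 had been -0.94 and that of Ddit4 -0.16, and the difference between the states is tested below. The median of the 10 was -0.63 against -0.01 for all genes tested, and it was -0.39 without control KD replicate 1 and -0.95 without replicate 2. Without control KD replicate 1, Ddit3 was at 0.20, Sesn2 at 0.08 and Trib3 at 0.001 (standard error 0.502), Atf4 at -0.03 and Chac1 at -0.45, and 3 genes were called, Atf5 (-0.87, adjusted p = 0.0434), Asns (-0.88, adjusted p = 0.0441) and Phgdh, where 10.7% of all genes were called as lower. Without control KD replicate 2, 8 of 10 were called, all but Sesn2 and Ddit4, where 16.2% of all genes were called as lower. Atf5 and Asns thus lay well below either control KD library in both states, and the differences of Atf4, Ddit3 and Trib3 rested on replicate 1.

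**Figure D4:**
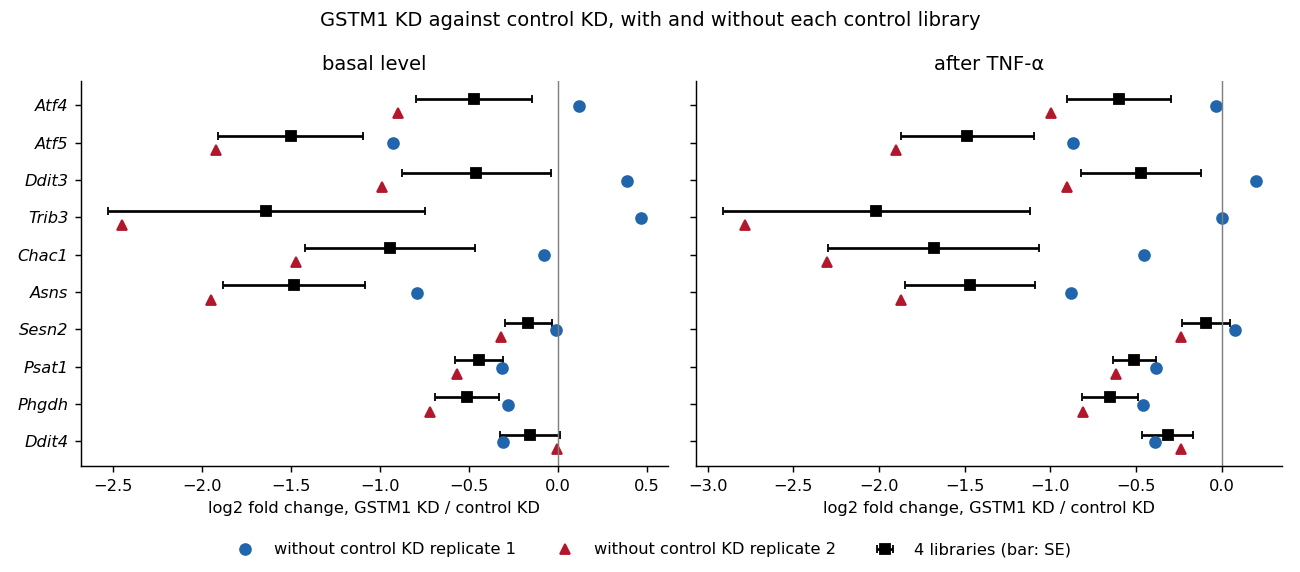
Log2 fold change of GSTM1 KD against control KD (horizontal axis) at baseline (left) and after TNF-α (right), from the 4 libraries (squares, bars are the standard error), without control KD replicate 1 (circles) and without control KD replicate 2 (triangles). Circles of Ddit3 and Trib3 lie at or above 0 (0.39 and 0.47 at baseline), and those of Atf5 and Asns stay below -0.7 in both panels.

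Whether TNF-α itself altered the 10 genes was then read within each kind of astrocyte, in a fit of all 8 libraries. In control KD 0 of 10 were called by edgeR, 0 had an unadjusted p under 0.05 and DESeq2 called 0, where edgeR called 2.63% of 15332 genes. The log2 fold changes ran from -0.08 for Psat1 (standard error 0.129) to 0.51 for Trib3 (standard error 0.999). In GSTM1 KD the same 3 counts were 0, where 2.65% of all genes were called, and values ran from -0.46 for Chac1 (standard error 0.671) to 0.26 for Sesn2 (standard error 0.144, adjusted p = 0.661). Sesn2 was higher in both stimulated GSTM1 KD libraries than in both unstimulated ones, and Chac1 was lower, so that 2 of 10 did not overlap, where 44.5% of all genes did not. In control KD 0 of 10 did not overlap, against 34.5% of all genes. For Sesn2 in control KD the value was 0.16 (standard error 0.143), so the precision differed widely between genes. Set against the unstimulated library of the same number, Atf4, Atf5 and Sesn2 were higher and Psat1 was lower after TNF-α in 4 of 4 pairs, which makes 4 of 10 genes with a single direction, against 43.5% of all genes. With the replicate number as a block 0 of 10 were called in either kind of cell. The difference of the 2 responses was largest for Chac1, -0.71 (standard error 0.903), and 0 of 10 were called, with 0 at an unadjusted p under 0.05 and 0 by DESeq2. In that test edgeR called 0% of 15332 genes, with 295 genes at an unadjusted p under 0.05 and 27 genes called by DESeq2.

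The partners of ATF4 were read next. Among the bZIP partners and Nupr1, 6 genes in all, 2 were called lower and 1 higher in GSTM1 KD in each state. The shares of all genes called as lower were 5.62% at baseline and 8.92% after TNF-α, and 10.2% and 16.2% were called in either direction. Cebpg, whose product pairs with ATF4 on CARE sites, had 72.8 and 54.0 CPM in control KD and 27.5 and 27.3 CPM in GSTM1 KD at baseline, and fell, with log2 fold changes of -1.21 (adjusted p = 0.0218) and, after TNF-α, -1.24 (adjusted p = 0.0109). Nfe2l1, a regulator of proteasome genes, had 573 and 552 against 295 and 268 CPM and fell as well (-0.998, adjusted p = 0.0183, and -1.08 after TNF-α, adjusted p = 0.0111). For both genes every control KD library was above every GSTM1 KD library in both states, and without control KD replicate 1 the values were -0.98 and -0.97 at baseline. Atf3, an early stress factor, went the other way, with 9.98 and 9.89 against 17.5 and 19.8 CPM at baseline. It rose in GSTM1 KD by 0.91 on the log2 scale (adjusted p = 0.0299), and by 0.68 in the stimulated cells (adjusted p = 0.0317). TNF-α also raised Atf3 in both kinds of cell, by 0.93 in control KD (adjusted p = 0.0138) and by 0.72 in GSTM1 KD (adjusted p = 0.0319). It raised Cebpb likewise, by 1.60 (adjusted p = 0.0102) and 1.20 (adjusted p = 0.0281). In a fit of the 4 control KD libraries alone, neither gene was called for TNF-α.

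Among 13 amino acid enzymes beside the members, 4 were lower and 1 higher in GSTM1 KD at baseline, and 2 were lower after TNF-α. By edgeR 5.62% and 8.92% of all genes were called as lower, so that its second count is near the background. DESeq2 called 6 at baseline, Got1 among them as higher, and 5 after TNF-α, where it called 10.1% and 11.1% of all genes as lower. The groups did not overlap, with GSTM1 KD lower, for 9 and 7 of 13, against 31.2% and 32% of all genes. The other way, 1 and 2 did not overlap. Gpt2, an alanine aminotransferase, had 77.9 and 76.6 against 41.1 and 35.8 CPM at baseline and fell, with log2 values of -1.01 (adjusted p = 0.0161) and -1.11 after TNF-α (adjusted p = 0.0150). Aldh1l2, a mitochondrial folate enzyme, had 14.6 and 11.1 against 5.45 and 4.86 CPM and fell too (-1.32, adjusted p = 0.0282, and -1.25 after TNF-α, adjusted p = 0.0420). The proline enzymes Pycr1 (12.4 and 7.93 against 4.38 and 3.15 CPM, log2 fold change -1.43) and Aldh18a1 (-1.12, named after its values were seen) were lower at baseline, with adjusted p-values of 0.0450 and 0.0486. Got1, an aspartate aminotransferase, was higher (0.61, adjusted p = 0.0290). The median of the 13 was -0.57 at baseline and -0.65 after TNF-α. These medians were -0.21 and -0.17 without control KD replicate 1, and -1.01 and -0.92 without control KD replicate 2. Without replicate 1, Aldh18a1 at baseline was at -0.70. Of the called genes of these lists, Atf3, Got1 and Pycr1 held the CARE core in a promoter window, 2 that were higher and 1 that was lower in GSTM1 KD, so the letters went with either direction. They are shown as above, Atf3 at chr1:191183425-191183454, Got1 at chr19:43524689-43524718 and Pycr1 at chr11:120643833-120643862, all on the minus strand.
Atf3: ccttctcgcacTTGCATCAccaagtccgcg
Got1: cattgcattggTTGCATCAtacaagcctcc
Pycr1: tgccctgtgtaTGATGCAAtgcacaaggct

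Among 12 secreted and death-linked effectors, of which 10 were tested, 2 were lower in each state. For comparison, 5.62% of all genes were called as lower at baseline and 8.92% after TNF-α. The median of the list was -0.42 at baseline and -0.41 after TNF-α. It was -0.13 and -0.16 without control KD replicate 1, and -0.58 and -0.65 without control KD replicate 2. Gdf15, a circulating stress cytokine, had 20.1 and 16.5 CPM in control KD and 5.45 and 5.56 CPM in GSTM1 KD at baseline, and 27.7 and 25.3 against 7.48 and 6.26 CPM after TNF-α. It fell in both states, with log2 fold changes of -1.74 unstimulated (adjusted p = 0.0160) and -1.97 stimulated (adjusted p = 0.00980), and without control KD replicate 1 the values were -1.59 and -1.90. Tnfrsf10b, the death receptor DR5 that CHOP is known to induce, fell as well (-1.14, adjusted p = 0.0292, and -1.05, adjusted p = 0.0122), while Ddit3 itself was not called. For Gdf15 and Tnfrsf10b every control KD library was above every GSTM1 KD library in both states, which was not so for Ddit3 and Trib3.

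The tRNA synthetases lay below 0 as a group without calls by edgeR. Of 20, 19 had a log2 fold change below 0 in each state, against 50.3% and 51% of all genes. Their medians were -0.31 at baseline and -0.29 after TNF-α. The groups did not overlap, with GSTM1 KD lower, for 11 and 12 of 20, against 31.2% and 32% of all genes. By edgeR 0 were called in each state, with 6 and 5 at an unadjusted p under 0.05, no more than the 31.6% and 36.2% of all genes. DESeq2 called 2 and 3, near its 10.1% and 11.1% of all genes called as lower. The medians were -0.11 and -0.12 without control KD replicate 1, with 13 and 15 of 20 below 0 and 0 called, and without replicate 2 they were -0.54 and -0.48, with 15 and 12 called as lower. Of 13 amino acid transporters, 12 were tested, with medians of -0.29 and -0.47, or, leaving out control KD replicate 1, -0.15 and -0.27. At the basal level edgeR called 0 of them, and 4 had an unadjusted p under 0.05, near the 31.6% of all genes. DESeq2 called 2 there, where it called 10.1% of all genes as lower. After TNF-α edgeR called Slc7a6 (log2 fold change -0.64, adjusted p = 0.0226), where 8.92% of all genes were called as lower. In that state 4 had an unadjusted p under 0.05, against 36.2% of all genes. DESeq2 then called 5, where it called 11.1% of all genes as lower. The 18 genes for eIF2, eIF2B, the eIF2 kinases and the eIF2 phosphatase, which act before ATF4, had medians of -0.02 and -0.08. In the knockdown comparisons edgeR called 0 of these 18, where 10.2% and 16.2% of all genes were called in either direction. An unadjusted p under 0.05 was found for 1 and 2, against 31.6% and 36.2% of all genes. DESeq2 called 0 at baseline and 1 after TNF-α, Eif2ak2, which encodes the interferon-induced kinase PKR. There it was higher in GSTM1 KD (log2 fold change 0.65, adjusted p = 0.0111 by DESeq2 and 0.0612 by edgeR). TNF-α raised Eif2ak2 in GSTM1 KD, from 64.3 and 57.5 to 150 and 106 CPM (log2 fold change 1.07, adjusted p = 0.0218). In control KD it went from 58.1 and 67.4 to 77.5 and 82.0 CPM (0.35, adjusted p = 0.493), and the difference of the responses was not called (0.72, adjusted p = 1).

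The chaperone arm was read beside these lists. Its 18 genes had medians of 0.13 at baseline and 0.12 after TNF-α, with 6 of 18 below 0 in each state. Leaving out control KD replicate 1 gave medians of 0.08 and 0.12, and over all libraries left out in turn they ran from 0.01 to 0.20 and from 0.06 to 0.16. By edgeR 1 was called, Xbp1, lower after TNF-α (log2 fold change -0.65, adjusted p = 0.0313), where 8.92% of all genes were called as lower. At the basal level edgeR called 0 of 18, where 10.2% of all genes were called in either direction. In each state 4 had an unadjusted p under 0.05, against 31.6% and 36.2% of all genes. DESeq2 called 1 and 2 as lower, where it called 10.1% and 11.1% of all genes as lower. The groups did not overlap, with GSTM1 KD higher, for 8 and 9 of 18. With GSTM1 KD lower, 3 did not overlap in each state, against 31.2% and 32% of all genes. The CARE core was in 17 of 62 genes with a window from the 6 other integrated stress response lists (27.4%) and in 0 of 15 of the chaperone arm. The endoplasmic reticulum stress response element (CCAAT, 9 bases of any kind, then CCACG, either strand) was in 8 of 15 of the chaperone arm (53.3%), in 0.137% of all genes and in none of the 10 genes.

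**Figure D5:**
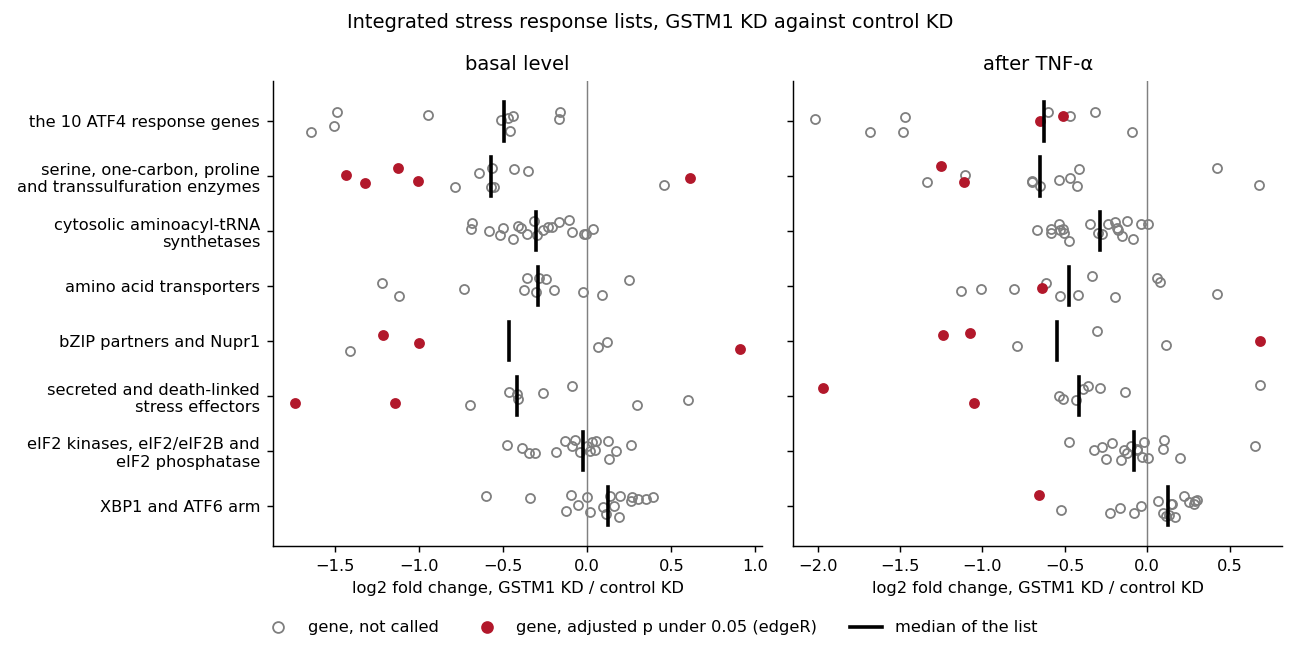
Log2 fold change of GSTM1 KD against control KD (horizontal axis) for the genes of 8 lists at baseline (left) and after TNF-α (right). Each point is a gene, filled red where edgeR called it, and the black bar is the median of the list, which is -0.49 and -0.63 for the 10 ATF4 response genes and 0.13 and 0.12 for the XBP1 and ATF6 arm. Without control KD replicate 1 the medians of the 10 genes were -0.18 and -0.39.

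Lists of p53, hypoxia and glucocorticoid targets were read beside the 10 genes, since Sesn2 and Ddit4 are also targets of p53, hypoxia or glucocorticoids. Of 10 p53 targets 1 was higher in GSTM1 KD at baseline (Sesn1, log2 fold change 0.88, adjusted p = 0.0419). A further 1 was lower (Zmat3, -0.58, adjusted p = 0.0300), and the same counts were found after TNF-α. Over all genes 10.2% were called in either direction at baseline and 16.2% after TNF-α. These shares also apply to the hypoxia and glucocorticoid lists. Of 9 hypoxia targets tested, Egln3 (1.08, adjusted p = 0.0487) and Pdk1 (0.54, adjusted p = 0.0440) were higher at baseline. Both were higher after TNF-α too (1.21 and 0.83), where Adm was lower (-1.81, adjusted p = 0.0155). Of 10 glucocorticoid targets, Fkbp5 (-0.83), Sgk1 (-1.16) and Dusp1 (-0.81) were lower at baseline, with adjusted p-values of 0.0228 to 0.0270. After TNF-α 4 of 9 tested were lower (Fkbp5, Dusp1, Errfi1 and, named after its values were seen, Sgk1). As lower, 5.62% of all genes were called at baseline and 8.92% after TNF-α. Sesn2 and Ddit4 themselves were not called.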

How the data were processed

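Strand-specific libraries had been made from total RNA. Per the submitters' processing notes, STAR (version 2.5.4b) and RSEM (version 1.3.0) were used with the GRCm38 mouse genome. The authors' RSEM run gave an expected count per gene, a raw estimate that need not be whole when reads fit several transcripts. The deposited TPM values, scaled by the authors to gene length and library total, served here to compare levels between genes. The deposited effective lengths, in bases, entered an alternative fit. Whether counting used the strand is not given in the sources used here.

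Expected counts were rounded. edgeR (version 4.0.16, R version 4.3.3) gave TMM factors, CPM, the filterByExpr filter and the quasi-likelihood F-test (legacy form), adjusted by Benjamini-Hochberg over all genes tested at 0.05. DESeq2 (version 1.42.0), the tool the study names, was an alternative. The knockdowns were compared within a state on its 4 libraries, and the TNF-α responses on all 8. All 10 genes passed the filter in each of these fits. With 2 replicates per group, p-values come only from models fitted across all genes, and since what a replicate number marks is not stated, they measure the spread between these samples, which may be in part technical. Precision was limited by that spread and, for Trib3 and Chac1, by counts of 21 to 313 in a library.

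The 10 genes and the other lists were chosen with earlier results of these data known. Named were the 10 genes and, from each other list and comparison, at most the 3 called genes a direction with the smallest p. Alternatives changed the test (DESeq2, edgeR's newer quasi-likelihood method), the scaling (size factors of DESeq2, library size without TMM, effective length offsets, recomputed TPM), the filter (none, or 10 counts in all libraries), the libraries (8 or 4 in a fit, each left out in turn) and the block for the replicate number. For the other lists, their called genes and the median of the 10 genes, these alternatives were added after the data were seen. The log2 replicate differences used a pseudocount of 0.5 CPM. Promoter windows came from RefSeq (GRCm38.p6) and matched all 10 symbols, and gene positions from GENCODE. The summed level of the whole microglial list is not reported here. Scripts were tested on simulated data. Figures were drawn with matplotlib (version 3.10.9).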

Additional observations from a re-analysis of the deposited data

How the results depend on the processing

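The number of the 10 genes called in GSTM1 KD against control KD depended on the filter, the test and the libraries. At baseline it was 0 as reported, 2 with DESeq2, 8 with no filter on low counts (8.76% of all genes called as lower) and 6 with a replicate block (15.9%). After TNF-α it was 2 as reported, 8 with no filter (9.83%), 1 with at least 10 counts in every library (9.12%), 1 in the fit of all 8 libraries (10.1%) and 6 with the replicate block (15.3%). Leaving out 1 library gave 0 to 9 at baseline and 0 to 8 after TNF-α. Without a GSTM1 KD library few genes of any kind were called (1 and 3 at baseline, 0 and 94 after TNF-α), so calls of the lists named above were lost there too. For the responses to TNF-α and their difference 0 of 10 were called under all alternatives run. What a replicate number marks is not stated, and a comparison holds only 2 pairs. Deviations of replicate 1 from the group mean correlated at 0.22 to 0.687 in all 6 pairs of groups over 15332 genes, highest between the 2 control KD groups, so libraries of one number deviated together. With 1 library left out, log2 fold changes that turned sign ran from -0.90 to 0.12 for Atf4, -0.99 to 0.39 for Ddit3 and -2.45 to 0.47 for Trib3 in GSTM1 KD at baseline, and from -0.91 to 0.20 for Ddit3, -2.78 to 0.001 for Trib3 and -0.239 to 0.079 for Sesn2 after TNF-α. For TNF-α in control KD all 10 turned sign, with ranges of -0.33 to 0.82 for Atf4, -0.57 to 0.62 for Atf5, -0.70 to 0.82 for Ddit3, -1.49 to 2.62 for Trib3, -0.97 to 1.12 for Chac1, -0.57 to 0.71 for Asns, -0.009 to 0.324 for Sesn2, -0.206 to 0.043 for Psat1, -0.161 to 0.26 for Phgdh and -0.023 to 0.295 for Ddit4. For TNF-α in GSTM1 KD 7 did, with ranges of -0.001 to 0.28 for Atf4, -0.30 to 0.58 for Atf5, -0.037 to 0.005 for Ddit3, -0.43 to 0.57 for Trib3, -0.335 to 0.38 for Asns, -0.221 to 0.043 for Phgdh and -0.182 to 0.154 for Ddit4. For the difference of the responses all 10 did, with ranges of -0.69 to 0.47 for Atf4, -0.53 to 0.66 for Atf5, -0.84 to 0.68 for Ddit3, -2.46 to 1.66 for Trib3, -1.58 to 0.52 for Chac1, -0.66 to 0.63 for Asns, -0.063 to 0.272 for Sesn2, -0.17 to 0.082 for Psat1, -0.347 to 0.076 for Phgdh and -0.314 to 0.023 for Ddit4. With all libraries kept, values near 0 turned sign for TNF-α in control KD, Asns to -0.014 with library size only, -0.01 with no filter and -0.012 with effective length offsets and Phgdh to -0.005 with library size only, and for the difference Ddit3 to -0.009 with at least 10 counts in every library, -0.015 with the replicate block and -0.017 with effective length offsets. In the knockdown comparisons no gene of the 10 turned sign under an alternative that kept all libraries, and the order of levels was kept for 10 of 10 with recomputed TPM. Beyond the values that name a setting, the cause of these shifts was not tested.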
